A study of Mus musculus with 24 samples.

Results

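The genes described here encode the matrix metalloproteases, their tissue inhibitors, and the related ADAM and ADAMTS proteases. They were every gene whose symbol in the array annotation began with Mmp or Adam and a number, or with Adamts, together with Timp1 to Timp4. That rule gave 69 of the 16593 genes named on the array, with 103 of its 25697 probes: 20 matrix metalloproteases, 4 inhibitors, 29 ADAM genes, 14 ADAMTS genes and 2 ADAMTS-like genes. A probe counted as detected when its detection p against the negative controls was under 0.05, and it was kept if at least 4 arrays detected it. For testing there remained 37 probes of 31 of these genes, among 8945 genes tested in all.

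Matrix metalloproteases are zinc-dependent enzymes that cut collagens, laminins and other matrix proteins, and they are made as inactive precursors that other proteases open. The tissue inhibitors, or TIMPs, plug the active site of these enzymes, the ADAM proteases release growth factors and receptors from the cell surface, and the ADAMTS proteases cut proteoglycans in the matrix. In muscle that lacks dystrophin, fibres break down and regenerate, immune cells enter and connective tissue builds up between the fibres, and in that setting these enzymes and inhibitors are known for remodelling the matrix.

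RNA of whole gastrocnemius, a calf muscle, came from 24 male mice on 1 Illumina array each. Wild-type C57Bl/10ScSnJ mice made up 4 arrays, and mdx mice, which carry a mutation that removes dystrophin, made up 4 groups of 5 arrays. All 4 mdx groups were treated for 7 weeks. The first was injected with PBS, and the second with PBS while it had a running wheel. A further group was injected with the soluble activin receptor sActRIIB-Fc at 5 mg/kg, and the last with sActRIIB-Fc while running (the combination). Injections went into the abdomen once a week. sActRIIB-Fc carries the ligand-binding part of activin receptor type IIB joined to an antibody tail and binds myostatin, activins and similar ligands. The labels give an age of 6 to 7 weeks without saying at which point of the study. Wild-type mice are labelled as having had no treatment, so that an effect of genotype and one of PBS cannot be told apart. All 4 mdx groups share the wild-type arrays as their control.

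Between 10404 and 11971 probes were detected per array, and of the 69 genes 17 to 22 were detected on a wild-type array against 25 to 31 on an mdx array. The tissue label was checked with 10 markers of mature fast fibres, whose mean log2 level lay between 14.15 and 14.33 on the wild-type arrays and between 14.23 and 14.35 on the mdx PBS arrays, with no marker called. Liver-type transcripts varied between arrays by degrees, with a hepatocyte marker mean from 4.74 to 11.47. Wild-type array 2, running array 2 and combination arrays 1 and 2 were the 4 highest, at 9.38 to 11.47, and running array 1 (8.47) and wild-type arrays 1 (8.23) and 3 (8.12) came next. Without the 4 highest arrays the counts of genes called against wild type, given below, were 20 for PBS, 18 for running, 20 for sActRIIB-Fc and 20 for the combination.

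In dystrophic muscle 16 of the 31 tested genes rose and 4 fell against wild type. The inhibitor Timp1 rose 17.8-fold, Mmp14 4.76-fold, Adam19 4.11-fold and Mmp2 2.92-fold, and Mmp3, Mmp12 and Mmp13, undetected in wild type, rose at least 5.35-fold, 4.68-fold and 2.76-fold. The inhibitors went in both directions, with Timp1 and Timp2 higher and Timp3 and Timp4 lower. Among all tested genes 37.7% were called in mdx PBS against wild type, 19.3% higher and 18.5% lower, while the 20 called genes made up 64.5% of those tested here. A call means a limma adjusted p under 0.05 (Benjamini-Hochberg over all 8945 genes, two-sided). The median log2 difference was 0.45 for the 31 genes and -0.05 for all tested genes. At a 2-fold difference or more, 8 rose and 1 fell, against 7.27% of all genes.

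These counts depend in part on detection. Of the 31 tested genes, 10 were detected on no wild-type array and entered the test only through mdx arrays (Adam26a, Adam8, Adamts17, Adamts20, Adamts4, Adamts7, Mmp11, Mmp12, Mmp13 and Mmp3), and 6 of them rose. For such genes a fold is given as a lower bound, the mdx mean against the mean of the lowest detected signal on the wild-type arrays, a log2 level of 5.53. No size is given where that bound is under 1-fold. An adjusted p beside such a bound belongs to the fitted difference from undetected wild-type readings and does not test the bound. With these genes at their bound the median became 0.31 and 7 genes rose by at least 2-fold. Of the 17 genes detected on all 24 arrays, 9 rose and 4 fell, or 76.5%, against 38.9% called among all tested genes with that detection. Since muscle was taken whole, fewer or more cells of a type and less or more RNA per cell cannot be told apart in any of these differences.

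**Figure D1:**
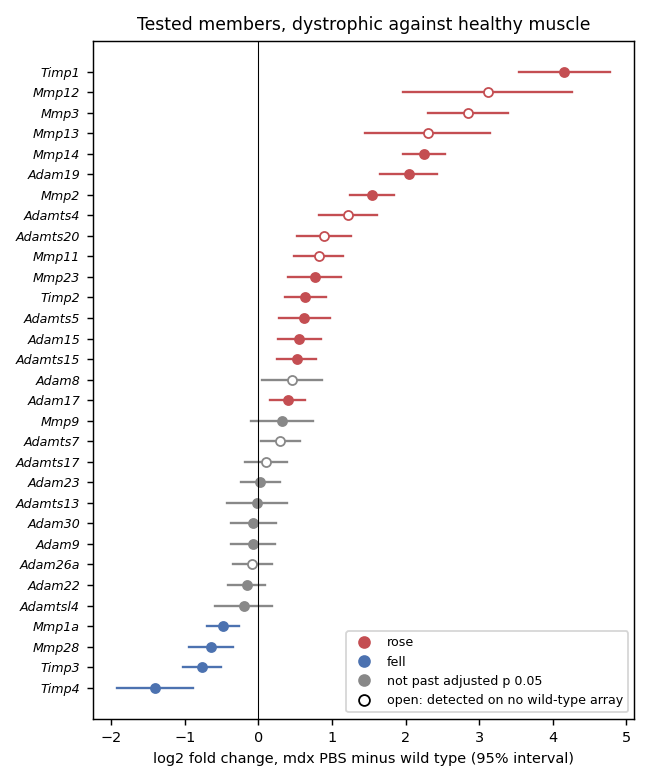
Log2 fold change of each of the 31 tested genes in mdx PBS (n = 5 arrays) against wild type (n = 4), with the 95% interval as a line. Genes that rose are red, genes that fell are blue, the rest are grey, and open circles mark genes detected on no wild-type array, whose plotted values are fitted against readings under the detection limit; Timp1 lies at the top at 4.16 and Timp4 at the bottom at -1.41.

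Timp1, a secreted inhibitor of most matrix metalloproteases, showed the largest difference of the family. Its log2 level was 6.22, 6.10, 6.43 and 5.83 on the wild-type arrays and 10.33, 10.33, 10.32, 10.21 and 10.34 on the mdx PBS arrays. Every mdx array of the 4 groups lay above every wild-type array. The difference in mdx PBS was 4.16 ± 0.30, or 17.8-fold, with a limma adjusted p of 3e-10, and the second Timp1 probe gave 4.44 ± 0.27. The 5 PBS arrays lay close together (SD 0.053), whereas the combination arrays read 10.13, 9.95, 11.31, 8.78 and 10.23. Combination array 4 was the lowest and combination array 3 the highest of all mdx arrays for this gene.

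Timp2, which inhibits MMP2 and also helps membrane-bound MMP14 to activate it, read 10.47, 9.99, 10.57 and 10.76 in wild type and 11.25, 11.09, 10.81, 11.06 and 11.23 in mdx PBS. The lowest mdx array was only just above the highest wild-type array. The log2 difference was 0.64 ± 0.13 with a limma adjusted p of 0.00059.

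Timp3, a matrix-bound inhibitor that also blocks ADAM17 and the aggrecanases ADAMTS4 and ADAMTS5, went the other way. Its levels were 10.32, 10.13, 10.13 and 10.37 in wild type and 9.64, 9.53, 9.41, 9.35 and 9.42 in mdx PBS, with all mdx arrays below all wild-type arrays. The log2 difference of -0.77 ± 0.13 had a limma adjusted p of 4.1e-05. Timp4, an inhibitor known for high expression in striated muscle and heart, fell further, from 9.75, 9.18, 9.68 and 9.07 to 7.52, 8.27, 7.87, 8.42 and 7.99. Again no mdx array reached the wild-type range, and the log2 difference was -1.41 ± 0.25, which is 2.65-fold lower, at a limma adjusted p of 9.1e-05. In the RefSeq annotation Timp1, Timp3 and Timp4 each lie inside a synapsin gene (Syn1, Syn3 and Syn2), and Timp2 does not.

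**Figure D2:**
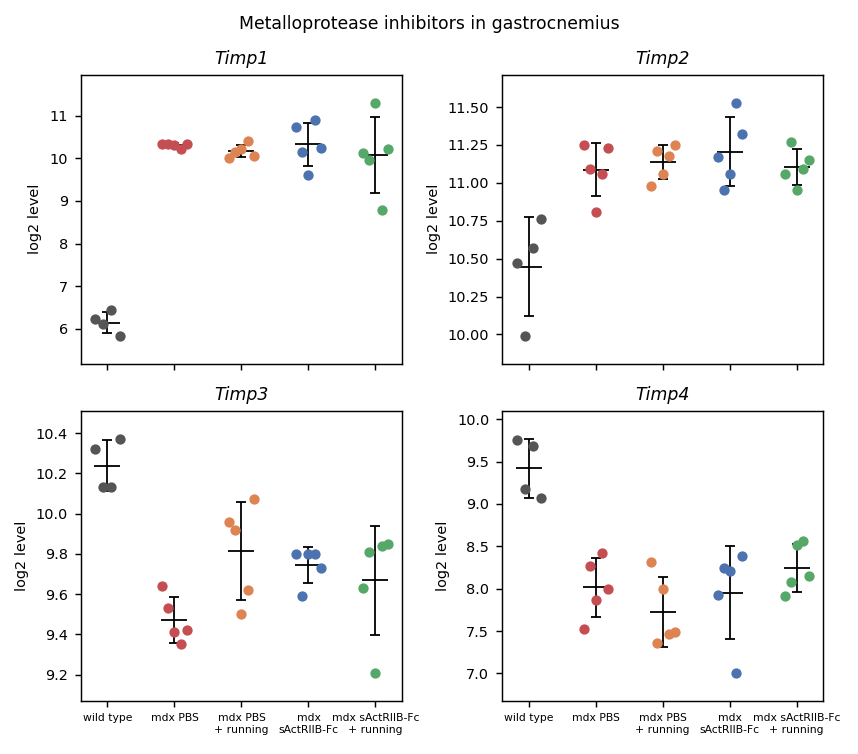
Log2 level of the 4 tissue inhibitors on each array (points) in the 5 groups, with the group mean and SD (black bar and whiskers; n = 4 wild type, n = 5 in each mdx group); each panel has its own axis. Timp1 and Timp2 stand higher and Timp3 and Timp4 lower in every mdx group, and the Timp1 points of the combination spread from 8.78 to 11.31.

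Among the 10 tested matrix metalloproteases 7 rose, 2 fell and Mmp9 passed no test, beside 19.3% of all tested genes higher and 18.5% lower in mdx PBS. Of those that rose, Mmp3, Mmp11, Mmp12 and Mmp13 entered the test only through mdx arrays, so this count depends in part on detection. Mmp14, a membrane-bound protease that cuts fibrillar collagen and activates the precursor of MMP2, read 8.38, 8.11, 8.27 and 8.62 in wild type and 10.93, 10.65, 10.42, 10.36 and 10.62 in mdx PBS. The groups were far apart, and the difference of 2.25 ± 0.14 on the log2 scale, or 4.76-fold, carried the smallest p of all 31 genes (limma adjusted p 1.5e-11). Mmp2, the gelatinase A that digests basement membrane collagen, read 10.29, 9.96, 10.42 and 10.66 against 12.20, 11.83, 11.65, 11.70 and 12.03. All mdx arrays were above wild type, by 1.55 ± 0.15 in mdx PBS (2.92-fold, limma adjusted p 2e-08).

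Mmp3, or stromelysin-1, which cuts proteoglycans and opens other precursors, was detected on no wild-type array and on every mdx array. Its wild-type readings of 5.06, 4.79, 5.26 and 5.30 lay below the detection level, and the mdx PBS arrays read 8.18, 8.52, 8.25, 7.41 and 7.41. The rise was at least 5.35-fold (limma adjusted p 1.5e-08), and the other Mmp3 probes, also detected on no wild-type array, were higher in mdx PBS with limma adjusted p-values of 5.7e-08 and 1.7e-09.

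Mmp12, the macrophage elastase, and Mmp13, the main interstitial collagenase of mouse tissue, spanned the widest ranges over the mdx arrays among the genes that rose. Mmp12 read 4.63, 4.53, 4.72 and 4.71 in wild type, where no array detected it, and 7.71, 7.79, 8.43, 8.41 and 6.46 in mdx PBS. It rose at least 4.68-fold with a limma adjusted p of 0.00011. Its mdx arrays ran from 5.28 on combination array 4 to 9.14 on combination array 3, all above wild type.

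Mmp13 read 4.63, 4.65, 4.65 and 4.87 in wild type, again without detection, and 7.40, 6.88, 7.12, 6.95 and 6.65 in mdx PBS, a rise of at least 2.76-fold (limma adjusted p 9.8e-05). Its lowest mdx reading was 5.39 on running array 5 and its highest 8.73 on combination array 3, with no overlap with wild type.

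Mmp11, or stromelysin-3, a protease that furin activates inside the cell, read 4.84, 5.20, 5.29 and 5.08 in wild type without detection and 5.91, 6.00, 6.04, 5.59 and 6.06 in mdx PBS. It rose by at least 1.31-fold in mdx PBS (limma adjusted p 0.00028) and by at least 1.73-fold in running mdx. Mmp23, a membrane-anchored protease, read 6.38, 5.91, 6.44 and 6.26 and 7.33, 6.91, 6.93, 7.08 and 6.82, a log2 difference of 0.76 ± 0.17 with a limma adjusted p of 0.0013. For both genes every mdx array lay above every wild-type array.

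Mmp28 (epilysin) and Mmp1a, a mouse interstitial collagenase, were the metalloproteases that fell. Mmp28 differed by -0.64 ± 0.15 on the log2 scale (limma adjusted p 0.0013), with all mdx arrays below wild type, and Mmp1a by -0.48 ± 0.10 (limma adjusted p 0.00073), with its second probe at -0.49 ± 0.16. Both calls rested on the scaling of the arrays. When arrays were scaled to equal medians instead of equal distributions, the median difference of all genes moved from -0.05 to 0.07, and the log2 difference of Mmp1a became -0.23 with an adjusted p of 0.087 and that of Mmp28 -0.40 with an adjusted p of 0.053. Whether the Mmp1a probes also read its near copy Mmp1b, which was not detected, was not tested.

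Mmp9, the gelatinase B of neutrophils and macrophages, read 6.24, 6.25, 6.49 and 6.59 in wild type and 6.27, 7.40, 6.76, 6.38 and 6.75 in mdx PBS. The groups overlapped, and the log2 difference of 0.32 ± 0.21 had a limma adjusted p of 0.23 (95% interval -0.11 to 0.75). With equal medians it became 0.58 with an adjusted p of 0.036. Of 10 neutrophil markers 3 were tested and 2 rose, while Mpo, Elane and 5 others were not detected often enough to be tested.

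**Figure D3:**
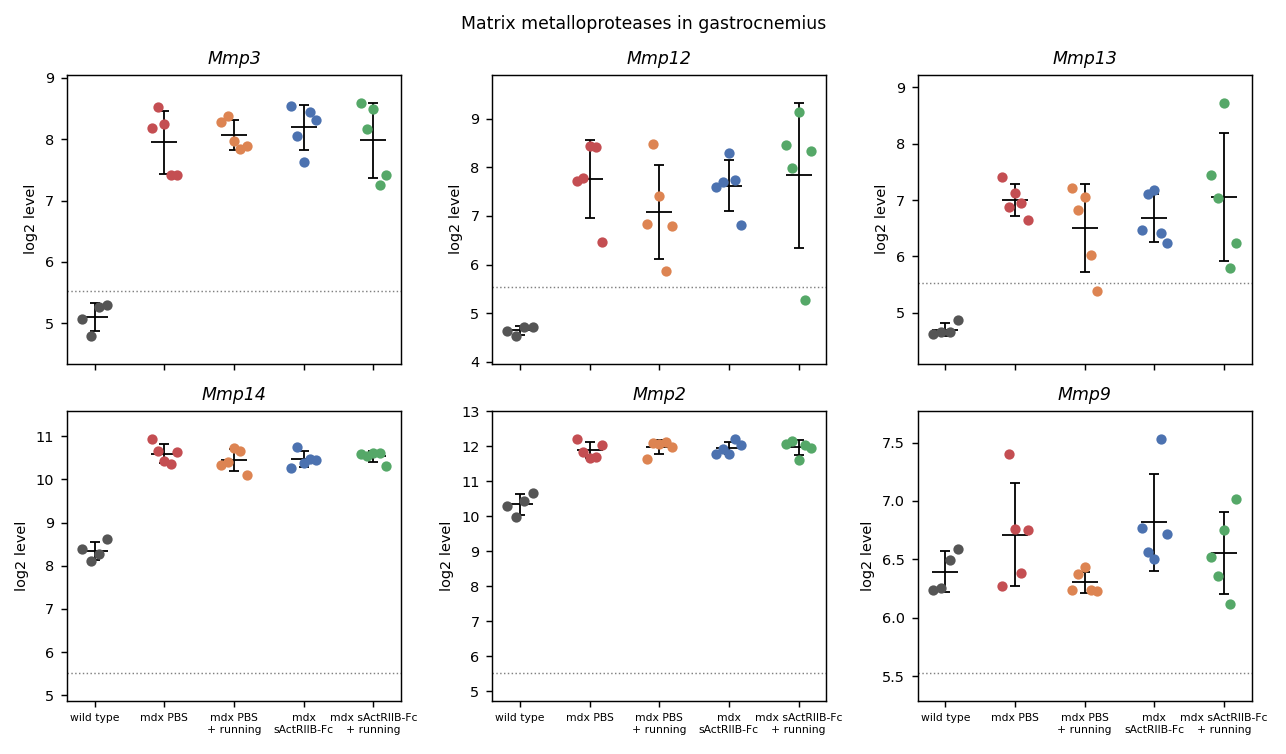
Log2 level of 6 matrix metalloproteases on each array (points) in the 5 groups, with the group mean and SD (n = 4 wild type, n = 5 in each mdx group). The dotted line is the mean over wild-type arrays of the lowest detected signal, 5.53; Mmp3, Mmp12 and Mmp13 lie below it in wild type, and Mmp9 overlaps between wild type and mdx.

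In the RefSeq annotation Mmp13, Mmp12, Mmp1b, Mmp3, Mmp1a, Mmp10, Mmp8, Mmp20 and Mmp7 follow each other on chromosome 9, with Mmp27, not analysed here, between Mmp8 and Mmp20. Of these neighbours Mmp13, Mmp12 and Mmp3 rose, Mmp1a fell, and Mmp1b, Mmp10, Mmp8, Mmp20 and Mmp7 were detected on no array. The promoters of the 4 tested neighbours are shown because they moved in different directions while each holds the 7-letter AP-1 motif TGAGTCA or its reverse complement TGACTCA, the site bound by Fos and Jun proteins for which collagenase and stromelysin promoters are known. Each stretch is 120 bases from RefSeq (GRCm38.p6, plus strand), written 5′ to 3′ with the motif in capitals.
Mmp13 (chr9:7272394-7272513): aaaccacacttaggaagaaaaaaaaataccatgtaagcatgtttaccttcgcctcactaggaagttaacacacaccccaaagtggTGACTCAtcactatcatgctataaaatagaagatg
Mmp12 (chr9:7347254-7347373): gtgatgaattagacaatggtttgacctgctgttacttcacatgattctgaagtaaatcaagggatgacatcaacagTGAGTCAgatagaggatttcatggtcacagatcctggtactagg
Mmp3 (chr9:7445702-7445821): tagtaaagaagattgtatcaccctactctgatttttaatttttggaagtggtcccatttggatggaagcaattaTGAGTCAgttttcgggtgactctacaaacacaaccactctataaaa
Mmp1a (chr9:7464021-7464140): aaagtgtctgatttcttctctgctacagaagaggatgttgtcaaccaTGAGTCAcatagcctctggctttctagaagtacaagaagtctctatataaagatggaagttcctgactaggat

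The motif begins 35 bases before the annotated start of Mmp13, 44 before a start of Mmp12, 46 before that of Mmp3 and 73 before that of Mmp1a. Promoters were matched for 22 of the 31 tested genes, and the 250 bases before a start held the motif on either strand in 5 of them, the fifth being 1 of the 3 annotated starts of Adam19. The motif was present in 4 of the 12 matched genes that rose, 1 of the 4 matched genes that fell and none of the matched genes without a call. Counted in the same way, 5.16% of the 27025 genes with a promoter on record held it. Since 4 of the 5 genes lie in 1 run of neighbours on chromosome 9, they are not separate cases, and the difference from that share was not tested. A match is a description of the letters, and no factor binding was measured.

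Among the ADAM proteases 9 of 29 were tested, and 3 of the 9 rose while none fell. Of all tested genes 19.3% were higher and 18.5% lower in this comparison. The share of ADAM genes called in either direction was no larger than the 37.7% of all tested genes. Adam19 (meltrin beta), a protease of developing muscle and heart that sheds neuregulin, read 6.65, 5.51, 6.31 and 6.52 in wild type and 8.56, 8.21, 8.32, 8.38 and 7.97 in mdx PBS. The groups did not overlap, and the difference was 2.04 ± 0.19 on the log2 scale, or 4.11-fold (limma adjusted p 1.2e-08). Adam15 (metargidin), which binds integrins, rose by 0.56 ± 0.14, and Adam17, the enzyme that releases tumour necrosis factor and receptor ligands, by 0.40 ± 0.11, with limma adjusted p-values of 0.0034 and 0.0077.

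Adam8, a leukocyte protease, was detected on no wild-type array, where it read 4.93, 4.90, 5.29 and 5.09. The mdx PBS arrays read 5.76, 5.27, 5.13, 5.66 and 5.72, partly within the wild-type range, and the gene did not pass (limma adjusted p 0.074). Its second probe, detected on no wild-type or mdx PBS array, passed when all probes were fitted (limma adjusted p 0.037), with both groups under the detection limit. The mdx PBS mean of Adam8 lay under the detection level of the wild-type arrays, so no size is given. Adam9 (-0.07 ± 0.15), the inactive neuronal family members Adam22 (-0.16 ± 0.12) and Adam23 (0.02 ± 0.13), and the testis genes Adam30 (-0.07 ± 0.15) and Adam26a (limma adjusted p 0.64, detected on no wild-type array) did not pass. Adam22 was detected on 1 wild-type and 1 mdx PBS array, and Adam30 on 1 wild-type and no mdx PBS array. Their differences are between readings mostly under the detection limit and do not show that the genes were unchanged. Adam12, known from regenerating muscle, and Adam10, the sheddase of Notch, each had 1 probe and were detected on no array.

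Of the 14 ADAMTS genes 7 were tested, and 4 of these rose, beside 19.3% of all tested genes that were higher. Of those that rose, Adamts4 and Adamts20 entered the test only through mdx arrays, so this count too depends in part on detection. Adamts4, an aggrecanase that also cuts versican, read 4.72, 4.54, 4.64 and 4.61 in wild type, where it was not detected, and 6.32, 5.49, 5.79, 5.92 and 5.71 in mdx PBS. All mdx arrays were above wild type, and the rise in mdx PBS was at least 1.24-fold (limma adjusted p 2.4e-05). With sActRIIB-Fc the bound was 1.06-fold. In the running group and in the combination the gene was detected on 3 and 2 of 5 arrays and the bound was under 1-fold, so that no size can be given there. Adamts5, the other main aggrecanase, read 6.92, 7.02, 7.00 and 6.99 and 7.87, 7.59, 7.63, 7.45 and 7.51, a log2 difference of 0.63 ± 0.17 without overlap (limma adjusted p 0.0053).

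Adamts20, a versican-cutting protease, rose by at least 1.19-fold (limma adjusted p 0.00038) and its second probe, also undetected in wild type, was higher as well (limma adjusted p 0.00012), and Adamts15 rose by 0.52 ± 0.13 (limma adjusted p 0.003). Adamts7, which cuts cartilage oligomeric matrix protein and was detected on no wild-type array, did not pass (limma adjusted p 0.07), but it did with array weights (adjusted p 0.038) or with only these 2 groups fitted (adjusted p 0.043). Nor did Adamts17 (limma adjusted p 0.58, detected on no wild-type array), Adamts13 (-0.02 ± 0.20), which cuts von Willebrand factor, or Adamtsl4 (-0.20 ± 0.19), a fibrillin-binding protein without protease activity, pass in the reported fit. Of the 38 genes that were not tested, 33 were detected on no array and 5 on up to 3 arrays (Adam29, Adam4, Adamts1, Adamts8 and Mmp19). For these genes only a level under the detection limit of most arrays can be stated.

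Genes that act with these enzymes were read from the same fit. Of 30 substrates 19 were tested and 14 rose with none falling (median log2 difference 1.07, against 19.3% of all tested genes higher), led by Cd74 (2.66 ± 0.16), a chain of antigen presentation that is also cut by proteases, and the collagens Col3a1 (2.26 ± 0.27) and Col5a1 (2.10 ± 0.14). Of 27 activators and clearance factors 17 were tested, 7 rose and 2 fell (median 0.20), beside the 19.3% of all tested genes that were higher and the 18.5% that were lower. The hyaluronan receptor Cd44 rose by 1.88 ± 0.24, urokinase Plau by 0.76 ± 0.15 and Rhbdf1, a partner of ADAM17, by 0.63 ± 0.14. Rhbdf2, the other such partner, differed by -0.51 ± 0.17, and Serpinf2, the plasmin inhibitor that the liver makes, by -0.80 ± 0.31, with a wild-type SD of 1.00 beside the liver transcripts on wild-type array 2. The membrane-anchored metalloprotease inhibitor Reck differed by -0.11 ± 0.13 and did not pass.

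Of 19 other metzincins and matrix proteases 13 were tested, 6 rose and 1 fell (median 0.43), beside the same 19.3% and 18.5% of all tested genes. The collagen-digesting cathepsin Ctsk rose by 2.08 ± 0.22, the lysosomal cathepsin Ctsb by 1.14 ± 0.18 and the procollagen protease enhancer Pcolce by 1.10 ± 0.14. Ece1, which makes endothelin, fell by 0.61 on the log2 scale (SE 0.15). Across all 3 lists no gene was called in any comparison among the mdx groups.

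Markers of other cells moved with these genes. Of 12 tested macrophage markers 11 rose in mdx PBS, and their mean log2 level ran from 6.48 to 7.11 on the wild-type arrays and from 8.84 to 9.46 on the mdx PBS arrays. All 10 tested fibroblast markers rose (8.28 to 8.65 against 9.45 to 9.92), as did all 8 tested markers of regenerating fibres (6.72 to 6.99 against 9.47 to 10.16). The fibroblast markers are not a separate set. Col1a1, Col1a2, Col3a1 and Dcn were also counted among the substrates, and Fap and Pcolce among the other proteases. None of 5 endothelial markers was called, and 2 of 3 adipocyte markers fell. The part of these cell types in the differences was not tested.

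The other mdx groups were set against the same wild-type arrays. In running mdx 15 of the 31 genes rose and 4 fell, against 34.7% of all genes called. With sActRIIB-Fc 15 rose and 4 fell, against 38.8%, and in the combination 18 rose and 4 fell, against 39.3%. In all 4 mdx groups 18 genes were called: Timp1 to Timp4, the 9 called metalloproteases Mmp1a, Mmp2, Mmp3, Mmp11, Mmp12, Mmp13, Mmp14, Mmp23 and Mmp28, and Adam15, Adam19, Adamts4, Adamts5 and Adamts20. For Adamts4 in the running group and the combination no size is given, since the group means lay under the wild-type detection level. For 13 genes all 20 mdx arrays lay above all wild-type arrays, and for Timp3, Timp4 and Mmp28 all lay below. Among the 13, Adamts4, Adamts20, Mmp3, Mmp11, Mmp12 and Mmp13 were detected on no wild-type array. The lowest mdx readings of Adamts4 (5.06), Adamts20 (5.21), Mmp12 (5.28) and Mmp13 (5.39) lay under the wild-type detection level of 5.53. Neither the share of all tested genes called in all 4 groups nor the share without overlap was computed.

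The inhibitors and Mmp14 are given for each of these groups. Timp1 differed from wild type by 4.03 ± 0.30 with running, 4.18 ± 0.30 with sActRIIB-Fc and 3.93 ± 0.30 in the combination. Mmp14 differed by 2.10 ± 0.14, 2.12 ± 0.14 and 2.19 ± 0.14 in the same order. Timp4 differed by -1.69 ± 0.25, -1.47 ± 0.25 and -1.18 ± 0.25. Because the wild-type arrays are shared, differences between these groups are read from the comparisons among mdx mice below.

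A few genes were called in some mdx groups and not in others. Adam17 passed in all but the running group, where it differed by 0.24 ± 0.11 (limma adjusted p 0.098), and Adamts15 in all but the sActRIIB-Fc group, at 0.26 ± 0.13 (limma adjusted p 0.12). Adam23 (0.34 ± 0.13, limma adjusted p 0.038) and Adam8 (at least 1.07-fold, limma adjusted p 0.023) passed only in the combination. Without the 4 arrays highest in liver transcripts Adam23 stood at 0.13 with an adjusted p of 0.55, and Adam17 in the combination at 0.27 with an adjusted p of 0.18. Leaving out 1 array ended the call of Adam15 in the running group (wild-type array 1 or 2, or running array 4), of Mmp1a in the running group (wild-type array 1 or running array 2) and in the sActRIIB-Fc group (wild-type array 1, 3 or 4, or sActRIIB-Fc array 1, 2 or 3), and of Adam17 in the sActRIIB-Fc group (wild-type array 3). In the combination it ended the calls of Adam8 (wild-type array 1 or 2, or combination array 3), Adam17 (wild-type array 3 or 4, or combination array 1, 2 or 3) and Adam23 (wild-type array 1, 2 or 3, or combination array 1, 2 or 3), with adjusted p-values of 0.05 to 0.12 over all of these. A passing test in one group and not in another does not show that the groups differ, and the comparisons among mdx groups below called none of these genes.

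Within mdx mice none of the 31 genes was called for running, for sActRIIB-Fc or for both together. Running against PBS called 0 of the 31 genes and 0.0112% of all genes by limma at an adjusted p under 0.05. sActRIIB-Fc against PBS and the combination against PBS each called 0 of the 31 and 0% of all genes. At an unadjusted p under 0.05 there were 4 of the 31 genes in each of these 3 comparisons, and 297, 285 and 523 of all genes.

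For genes detected on most arrays the intervals bound what could have been missed. Genes read mostly under the detection limit are counted too, such as Adam22, detected on no running or combination array. Their narrow intervals describe compressed readings and do not bound a difference in RNA. The 95% interval of the log2 difference lay within 1 in either direction for 29 of the 31 genes with running, 29 with sActRIIB-Fc and 30 with the combination. Mmp12 was the widest, at -0.68 with running (95% interval -1.77 to 0.40), -0.14 with sActRIIB-Fc (-1.22 to 0.95) and 0.08 with both (-1.004 to 1.17). For Timp1 the interval was -0.71 to 0.46 with running, -0.56 to 0.61 with sActRIIB-Fc and -0.81 to 0.36 with both. Mmp14 was held more tightly, within -0.42 to 0.11, -0.40 to 0.13 and -0.33 to 0.20.

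**Figure D4:**
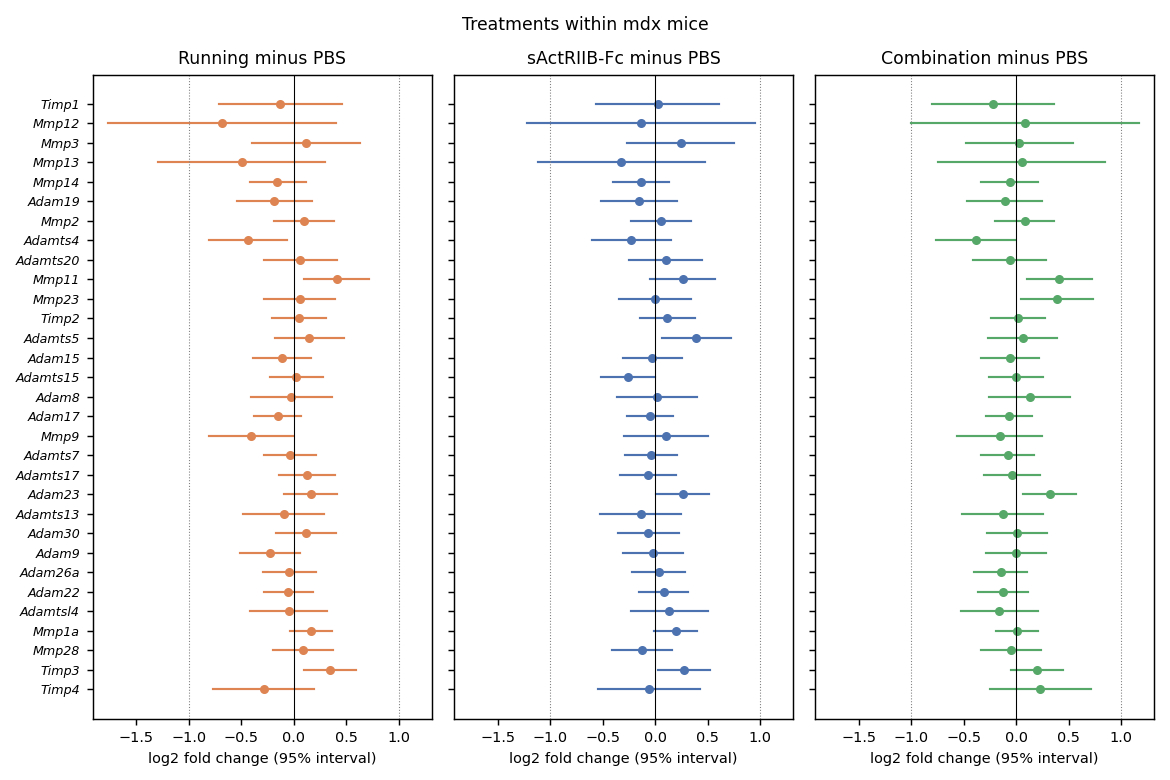
Log2 fold change of the 31 tested genes for running, sActRIIB-Fc and their combination, each against mdx PBS (n = 5 arrays per group), with the 95% interval as a line and dotted lines at -1 and 1. No gene passed the adjusted p limit in any panel, and Mmp12 and Mmp13 have the widest intervals.

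The genes with the lowest p in each comparison were small in size. For running these were Timp3 (0.35 ± 0.12), Mmp11 (0.41 ± 0.15) and Adamts4 (-0.44 ± 0.18), with a limma adjusted p of 1 each. Adamts4 was detected on only 3 of 5 running arrays, so its difference includes readings under the detection limit. The running arrays read 9.96, 9.92, 9.50, 9.62 and 10.07 for Timp3, where arrays 1, 2 and 5 lay above all mdx PBS arrays and arrays 3 and 4 lay within their range. For sActRIIB-Fc the lowest were Adamts5 (0.39 ± 0.16), Timp3 (0.27 ± 0.12) and Adam23 (0.26 ± 0.12), again with a limma adjusted p of 1.

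The sActRIIB-Fc arrays read 7.97, 7.88, 7.80, 8.40 and 7.94 for Adamts5, with array 4 the highest and array 3 within the mdx PBS range. For the combination the lowest were Mmp11 (0.41 ± 0.15), Adam23 (0.32 ± 0.12) and Mmp23 (0.39 ± 0.17), with limma adjusted p-values of 0.83. The combination arrays read 6.47, 6.74, 5.78, 6.21 and 6.46 for Mmp11 and 7.70, 7.52, 7.83, 6.99 and 6.96 for Mmp23. For both genes the 2 groups overlapped.

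Averaging over the other factor called no gene either. For running averaged over both injections 0 of the 31 genes and 0.0112% of all genes passed, and the lowest p belonged to Mmp11 (0.28 ± 0.11), Mmp9 (-0.34 ± 0.14) and Adamts4 (-0.30 ± 0.13). Adamts4 was detected on only 3 of 5 running and 2 of 5 combination arrays, so its difference includes readings under the detection limit. For sActRIIB-Fc averaged over both activities 0 of 31 and 0% of all genes passed, with Adam23 (0.21 ± 0.09), Adamts15 (-0.14 ± 0.09) and Mmp23 (0.17 ± 0.12) lowest. For the interaction of the treatments 0 of 31 and 0% of all genes passed, with Mmp1a (-0.36 ± 0.14), Timp3 (-0.42 ± 0.17) and Adamts5 (-0.48 ± 0.23) lowest. Unadjusted p-values under 0.05 were seen for 3, 1 and 3 of the 31 genes, and for 599, 282 and 356 of all genes.

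The Mmp9 readings of the running arrays were 6.24, 6.37, 6.43, 6.24 and 6.23, against 6.77, 6.56, 6.50, 7.53 and 6.72 with sActRIIB-Fc and 6.52, 6.36, 6.75, 6.12 and 7.02 in the combination. The running arrays stayed at or below the wild-type range's upper end, sActRIIB-Fc array 4 stood above the rest, and the groups overlapped. For running averaged over both injections Mmp9 had a limma adjusted p of 0.68.

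The 20 mdx arrays also varied within their groups, and this spread was set beside macrophage and fibroblast markers. Each group's mean was taken off, and the 20 genes called in mdx PBS were compared with the mean of 12 macrophage and of 10 fibroblast markers, 40 relations in all, by permutation within groups (100000 resamples, two-sided) with Benjamini-Hochberg adjustment over the 40. Mmp13 followed the macrophage markers most closely (n = 20 arrays, Pearson r = 0.881, permutation p 5e-05, adjusted p 0.002; Spearman rho = 0.85, permutation p 6e-05). Without the 2 arrays farthest from the median of the markers, combination arrays 3 and 4, r was 0.788, and leaving out any 1 array left the adjusted p at 0.012 or less.

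Of the 40 relations 10 passed, 6 with macrophage and 4 with fibroblast markers. The relations of the other tested genes were not computed, so this count cannot be set beside a share of all genes. Mmp12 had r = 0.808 with the macrophage markers (permutation p 0.00073, adjusted p 0.011; rho = 0.692, permutation p 0.0016) and 0.592 without the same 2 arrays. Adam17 had r = 0.81 with the fibroblast markers (permutation p 0.00079, adjusted p 0.011; rho = 0.798, permutation p 0.0011), and 0.818 without combination array 4 and PBS array 1, the farthest by those markers. Mmp1a ran opposite to the macrophage markers (r = -0.604, permutation p 0.0079, adjusted p 0.035; rho = -0.616, permutation p 0.01), with r = -0.421 without combination arrays 3 and 4. The others that passed were Mmp23, Adam17 and Adam19 with the macrophage markers and Mmp23, Mmp12 and Adam19 with the fibroblast markers. Each of the 9 relations other than that of Mmp13 lost its call when 1 array was left out, and the number passing was 1 without combination array 3, 2 without combination array 4 or 2, 4 without combination array 1 or PBS array 5, 5 without PBS array 1 and 6 without running array 3.

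Timp1 had r = 0.706 with the macrophage markers (permutation p 0.052, adjusted p 0.12; rho = 0.179, permutation p 0.51), but r was -0.024 without combination arrays 3 and 4, so that the relation rested on those arrays. Combination array 3 had the highest macrophage marker mean of all arrays (10.21) and combination array 4 the lowest of the mdx arrays (8.18). These are the arrays at which Timp1, Mmp12 and Mmp13 reached their extremes, apart from the lowest Mmp13 reading on running array 5, whose macrophage mean of 8.46 was the second lowest. Arrays share their whole RNA extract, and a relation across them does not say which cell made a transcript.

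**Figure D5:**
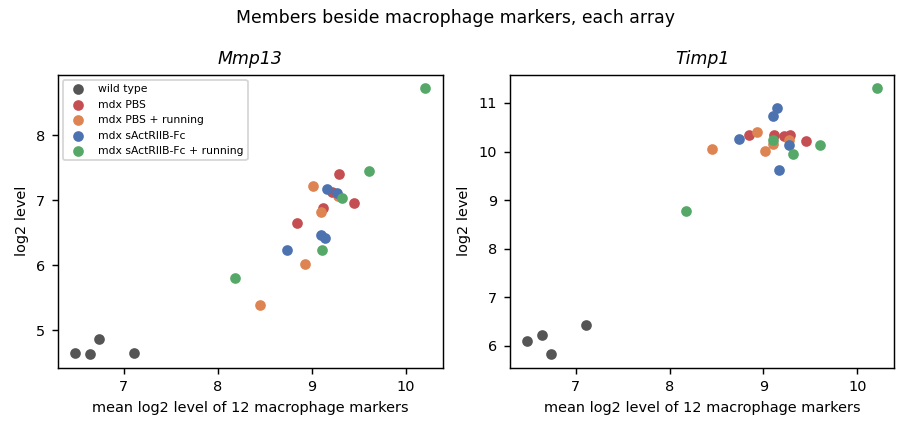
Log2 level of Mmp13 (left) and Timp1 (right) on each of the 24 arrays against the mean log2 level of 12 macrophage markers, coloured by group. Mmp13 rises with the markers among mdx arrays. Timp1 lies between 5.83 and 6.43 in wild type. Among mdx arrays its extremes are combination array 4 at 8.78 and combination array 3 at 11.31, and sActRIIB-Fc arrays 3 (9.61) and 4 (10.90) come next.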

How the data were processed

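The deposited intensity table gave, per the file headers, the mean bead signal of 25697 probes on 24 arrays and a detection p-value for each signal, and the deposited log2 matrix held the log2 of the quantile-normalized signal (largest difference 0.005 on recalculation). The authors' software is not given in the sources used here. From the intensities, background was corrected with normexp inferred from the detection p-values (offset 16), followed by quantile normalization and log2, in limma 3.58.1 under R 4.3.3. Probes with a detection p under 0.05 on at least 4 arrays were kept (12623), and each gene was read from its brightest probe (highest mean). Symbols came from the platform annotation: 23978 probes had 1 symbol, 1719 had none here, and 23962 matched a RefSeq gene. One limma model with 5 group means over all 24 arrays was moderated with eBayes, and p-values were adjusted over all 8945 genes. ± is the standard error of a log2 difference unless SD is written. The number of arrays limits the precision.

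The genes and lists were chosen with earlier results of these data known. By the rule for naming, every tested gene was named, array values were given for the inhibitors, for a fixed set of proteases and for genes past a log2 difference of 1, and the 3 lowest p-values stood for a comparison without calls. Replicate numbers are shared between groups. Same-numbered arrays deviated together more often than different-numbered ones but not in every pair, and the reported fit did not take them as pairs. Alternatives covered normalization, offset, filter, scope of the fit, array weights, covariates, the replicate block and leaving out each array.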

Additional observations from a re-analysis of the deposited data

Results flagged for a closer look

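A single array stood far from the others of its group in 11 of 155 group and gene combinations, judged by its gap to the nearest array as a share of the group's range against Dixon's 95% critical value, which chance alone passes in about 1 in 20 groups. Among the genes that rose, Timp1 read 10.21 on mdx PBS array 4, against 10.32 to 10.34 on the others. Mmp14 read 10.30 on combination array 5 (others 10.55 to 10.61) and Mmp2 read 11.64 on running array 1 (others 11.98 to 12.11). Mmp11 read 6.74 on running array 4 (others 6.14 to 6.29), and Mmp13, undetected in wild type, read 4.87 on wild-type array 4 (others 4.63 to 4.65).

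With sActRIIB-Fc, array 4 stood high for Mmp9 at 7.53 (others 6.50 to 6.77) and for Adamts5 at 8.40 (others 7.80 to 7.97). In the same group, array 5 stood low for Adam8 at 5.10 (others 5.57 to 5.71) and for Adamts13 at 4.67 (others 5.29 to 5.51). Adam9 read 8.01 on wild-type array 2, the array highest in liver transcripts (others 7.59 to 7.60), and Adam26a read 4.77 on running array 2 (others 5.16 to 5.28).

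Probes that were left out of the tests for low detection gave a signal above the negative controls on some mdx arrays and on no wild-type array. The Mmp19 probe did so on 3 mdx arrays, the probes of Adam4 and Adamts8 and a second probe each of Adam15 and Mmp13 on 2 mdx arrays, and a probe of Adamts1 on 1 mdx array. With 20 mdx arrays and 4 wild-type arrays, a few detections at a p under 0.05 do not show a difference. Other left-out probes were detected in wild type: an Adam29 probe on 2 wild-type arrays, and another probe each of Adamts1 and Timp3 on 1. Each of these was also detected on some mdx array.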

How the results depend on the processing

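Under 12 alternative settings, the number of genes called against wild type ranged from 18 to 23 for mdx PBS (20 as reported), 17 to 21 for running (19), 17 to 22 for sActRIIB-Fc (19) and 19 to 23 for the combination (22). Leaving out each array in turn gave 20 to 21, 17 to 19, 17 to 20 and 19 to 23. No called gene changed direction in any of these. The 6 comparisons among mdx groups gave 0 throughout. With the replicate block the counts were 21, 19, 19 and 23, and 0 among mdx groups, and Adamts7 then passed in mdx PBS (adjusted p 0.049). Of 46 same-numbered pairs of arrays 25 correlated over 0.1 (median r 0.12), against 44 of 184 different-numbered pairs (median r -0.05). Of 24 arrays 11 correlated best with their own number. Scaling to equal medians moved the share of higher calls among all genes from 51.1% to 71.9% in mdx PBS, 51.3% to 75.7% with running, 50.9% to 71.7% with sActRIIB-Fc and 49.7% to 69.6% in the combination, shifted the median of all genes by 0.12 to 0.13, and ended the call of Mmp1a against wild type in all 4 mdx groups. The relations to cell markers were 10 as reported, 9 with the authors' deposited log2 matrix, and 1 to 12 when single arrays were left out. The cause of these changes was not tested. Slide and scan position are not given in the sources used here, so no block for them was run. Genes near the detection limit have compressed or bounded differences.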
